A study of Mus musculus with 32 samples.

Results

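The genes described here are the 6 that encode the platelet-derived growth factor (PDGF) system of the mouse: the receptors Pdgfra and Pdgfrb and the ligand chains Pdgfa, Pdgfb, Pdgfc and Pdgfd. They were found by matching the RefSeq accession of each array probe to a gene symbol, which named 20145 genes, and all 6 were measured. Where a gene had more than 1 probe, the probe with the highest mean over all arrays gave its value. Pdgfa and Pdgfb had a second probe each, and both are given below.

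PDGF ligands are secreted as dimers of the A, B, C or D chains and bind the receptor tyrosine kinases PDGFR-alpha and PDGFR-beta on neighbouring cells. Endothelial cells of growing vessels are known for secreting PDGF-B, which recruits pericytes and vascular smooth muscle cells, the mural cells, through PDGFR-beta. PDGFR-alpha is known as a receptor of fibroblasts and other mesenchymal cells, with the A and C chains among its ligands, and the C and D chains are secreted with a domain that proteases must remove before they can bind. Sunitinib is an inhibitor of several receptor tyrosine kinases, among them the PDGF and VEGF receptors.

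Tumours were grown from 1 line, the luciferase-marked mouse mammary carcinoma 4T1-Luc, implanted into the third mammary fat pad of Balb/C females of 8 weeks, with treatment from 1 week later. All mice carried this tumour, and the groups differ in what they received, sunitinib at 40 mg/kg in PBS with DMSO or the same vehicle alone, and in when the tumour was removed. At a tumour size of 1300 mm3 the digested tissue was split with beads against PECAM-1, a surface protein of endothelial cells, into the bound cells, here the EC fraction, and the cells left behind, here the bulk fraction. Each fraction has 4 arrays from vehicle mice, 4 from sunitinib mice labelled sensitive up to day 8 and 4 from sunitinib mice labelled resistant up to day 8. By the mouse numbers of the titles each fraction pair came from the same mouse. A further 8 arrays hold smaller tumours labelled bulk tumour under the same protocol, with no EC partner used here and with nothing that says whether bound cells were removed, 2 of vehicle and 2 of sunitinib mice at day 9 and 2 of each at 600 mm3, and the sunitinib mice among them are labelled sensitive. Replicates are separate mice by their titles. The digestion medium contained actinomycin D, an inhibitor of transcription, for every sample, per the labels' protocols.

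Levels are on a log2 scale on which 0 is the 75th percentile of the signals on the same array. Probes differ in how they hybridise, so that levels are compared between arrays and not between genes. EC arrays of sensitive mice had 79.9% to 86.4% of their probes well above background, those of vehicle mice 80.3% to 82.2% and those of resistant mice 46.1% to 52.9%, while bulk and smaller tumours had 55.3% to 83.5%. A single slide holds the EC and bulk arrays of all resistant mice and no others, and where they are set against vehicle or sensitive mice an effect of the slide and of resistance cannot be told apart. In the 8 vehicle and sensitive mice the EC arrays lie on 1 slide and the bulk arrays on another, so that fraction and slide cannot be told apart there either. Sensitive and vehicle arrays of a fraction share a slide but fill different columns of it, and the same holds for the sunitinib and vehicle arrays of the smaller tumours. The bulk array of resistant mouse 2 stands apart, with 83.5% of probes well above background where the lowest of its group has 55.3%. Its lowest level well above background is -3.05, beside -7.09 to -5.38 on the other arrays of the bulk fraction. The values this array moved are given with and without it. The labels of the fractions were checked against markers: all 12 endothelial markers tested were higher in EC than in bulk, and all 9 tumour epithelial markers were lower. The EC fraction was not pure by the same lists, since 9 of 9 macrophage markers and 12 of 13 mural markers were also higher in it than in bulk. Of the 8 platelet and megakaryocyte markers 3 were higher and 1 lower, and of the 9 adipocyte markers 1 was higher. Over all genes tested 22.6% were higher and 29.3% lower.

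Of the 6 genes, 5 were well above background on all 32 arrays. Pdgfd was well above background on 24, which include every EC array but 1 of 4 bulk arrays of vehicle mice, 1 of 4 of sensitive mice, 3 of 4 of resistant mice and 1 of 2 of sunitinib mice at 600 mm3. The plot of levels by array shows all of these values.

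**Figure D1:**
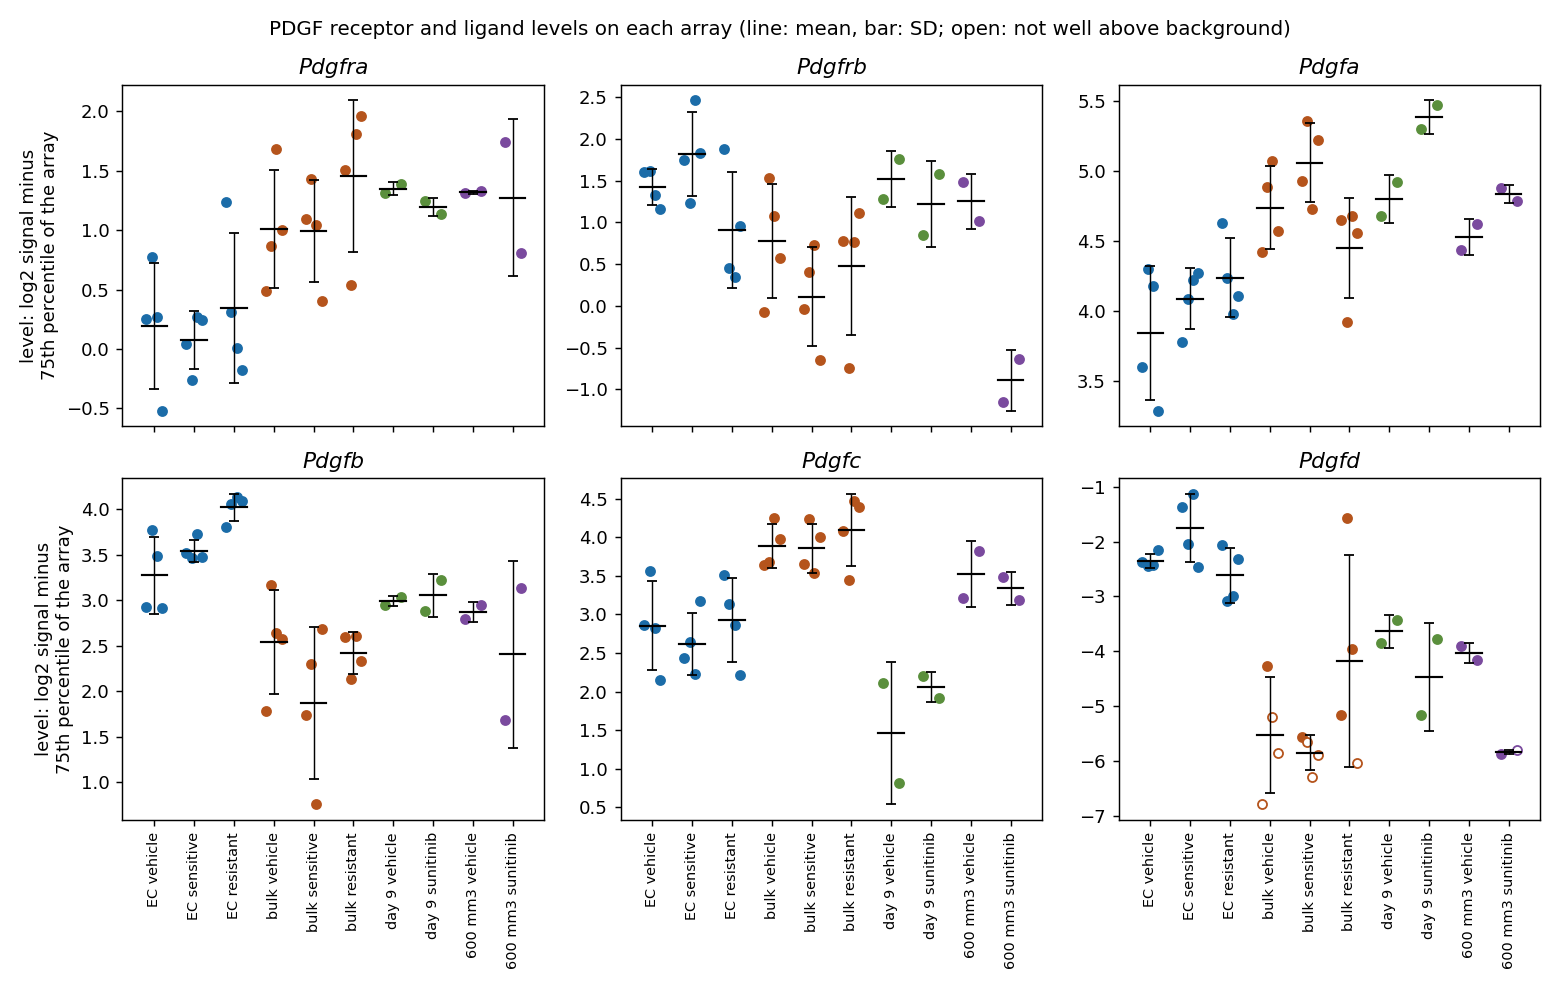
Level of each PDGF gene on every array, by group, in log2 relative to the 75th percentile of that array; points are arrays, lines group means, bars SD, and open points are not well above background. Pdgfd spans -2.47 to -1.13 in the EC fraction of sensitive mice and -6.29 to -5.57 in their bulk. The group mean of Pdgfrb is lowest in the 600 mm3 tumours of sunitinib mice.

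The first question is where in the tumour each gene is found, which the paired fractions of the 12 mice at 1300 mm3 address. The EC fraction held more Pdgfrb, Pdgfb and Pdgfd than bulk and less Pdgfra, Pdgfa and Pdgfc. Pdgfb, the ligand that endothelial cells are known for, was 2.53-fold higher in EC. Pdgfd was higher too, but its size has no firm value, since 7 of its 12 bulk signals were not well above background: the log2 difference was 2.95 as scaled here and 1.36 with normexp. The receptors moved apart: Pdgfrb, the mural receptor, was 1.91-fold higher in EC and Pdgfra, the mesenchymal receptor, 1.93-fold lower. With limma and mouse as a block, 3 of the 6 passed the threshold as higher, where 22.6% of the 18285 genes tested did, and 3 as lower, where 29.3% did, and 9491 genes differed between the fractions in all. Each of the 12 fits that left out 1 mouse called all 6. In resistant mice, where both fractions share a slide, a fit of their 8 arrays alone called 0 of the 6. That fit called 95 of the 18285 genes, and the differences of the 6 were the same as for resistant mice in the fit of all mice. In tissue or a fraction of it, fewer cells of a type and less RNA per cell cannot be told apart.

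Pdgfra was lower in the EC fraction than in the bulk of the same mouse in 12 of 12 mice. In vehicle mice its EC levels were 0.25, 0.77, 0.27 and -0.52 beside bulk levels of 0.49, 0.87, 1.68 and 1.00, in the order of mice 2 to 5. In sensitive mice 2 to 5 the EC levels were 0.04, -0.26, 0.27 and 0.24 and the bulk levels 1.09, 1.43, 1.04 and 0.40. In resistant mice 1 to 4 the EC levels were 1.24, 0.31, 0.01 and -0.18 and the bulk levels 1.51, 0.54, 1.81 and 1.96. The gap between fractions was thus under 0.3 in 5 of the 12 mice and over 1 in 6. Over all mice the difference was -0.95 (SE 0.22), with an adjusted p of 0.00373. Fibroblast markers were lower in EC for 5 of 14 and higher for 1, with a median difference of -0.43 beside -0.06 over all genes, and their mean level was 1.68 to 3.11 in EC and 1.93 to 3.23 in bulk. The 9 tumour epithelial markers had a median difference of -1.51. Their part in the result was not tested.

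Pdgfrb was higher in EC in 10 of 12 mice, with a difference of 0.93 (SE 0.20) and an adjusted p of 0.00245. Its EC levels were 1.60, 1.61, 1.33 and 1.16 in vehicle mice 2 to 5, where bulk had -0.07, 1.53, 1.07 and 0.57. In sensitive mice 2 to 5 the EC levels were 1.75, 1.23, 2.46 and 1.83 and the bulk levels -0.04, 0.40, 0.73 and -0.65, so that the fractions do not overlap. In resistant mice 1 to 4 the EC levels were 1.88, 0.45, 0.35 and 0.95 and the bulk levels 0.78, -0.74, 0.76 and 1.11, and mice 3 and 4 had the lower level in EC. Mural markers moved the same way: 12 of 13 were higher in EC, with a median difference of 1.06. Rgs5, a pericyte gene, was 2.60 higher, and Myh11, the smooth muscle myosin, 1.90. The mean level of the 13 markers was 1.38 to 1.74 in the EC fraction of vehicle mice and -0.01 to 1.10 in their bulk, and no marker signal was at or under 0. The part of the mural markers in the result was not tested.

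Among the ligands, Pdgfd had its higher levels in EC. Its EC levels were -2.37, -2.44, -2.42 and -2.16 in vehicle mice 2 to 5, -1.37, -2.04, -1.13 and -2.47 in sensitive mice 2 to 5, and -2.06, -3.09, -3.00 and -2.32 in resistant mice 1 to 4. The bulk levels were -6.79, -4.27, -5.20 and -5.86 in vehicle mice, -5.57, -5.66, -6.29 and -5.90 in sensitive mice, and -5.16, -1.57, -3.96 and -6.04 in resistant mice, in the same order. In vehicle and sensitive mice every EC array lies above every bulk array, and the bulk array of resistant mouse 2 is the highest bulk value and the only one above its EC partner. The difference was 2.95 (SE 0.42), with an adjusted p of 0.000154, and 3.29 without resistant mouse 2, with an adjusted p of 8.06e-06. With normexp, at 1.36, and in the deposited table, at 1.70, it was called too.

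Pdgfb was higher in EC in 12 of 12 mice, by 1.34 (SE 0.17), with an adjusted p of 7.71e-05. The EC levels ran from 2.91 to 3.77 in vehicle, 3.46 to 3.72 in sensitive and 3.80 to 4.13 in resistant mice, and the bulk levels from 1.78 to 3.17, 0.76 to 2.68 and 2.13 to 2.61. The EC and bulk ranges overlap in vehicle mice alone. The second Pdgfb probe, which correlates with the first at 0.57 over the 32 arrays, gave 0.71 (SE 0.22), with an adjusted p of 0.0169.

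Pdgfc and Pdgfa, which encode ligands of PDGFR-alpha, were lower in EC. Pdgfc differed by -1.15 (SE 0.19), with an adjusted p of 0.000426 and the same sign in 12 of 12 mice. Its EC levels were 2.15 to 3.57 in vehicle, 2.23 to 3.17 in sensitive and 2.22 to 3.51 in resistant mice, beside bulk levels of 3.64 to 4.25, 3.54 to 4.24 and 3.45 to 4.47. Only the resistant group overlaps between fractions, by the EC array of mouse 1 at 3.51 and the bulk array of mouse 2 at 3.45. Pdgfa differed by -0.69 (SE 0.11), with an adjusted p of 0.000369, in 11 of 12 mice, and its second probe, which correlates with the first at 0.98, gave -0.65. Its EC levels were 3.29 to 4.30 in vehicle, 3.78 to 4.27 in sensitive and 3.98 to 4.63 in resistant mice, beside bulk levels of 4.42 to 5.07, 4.73 to 5.36 and 3.92 to 4.68. Resistant mouse 2, whose bulk array stands apart, is the mouse with the higher Pdgfa level in EC.

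**Figure D2:**
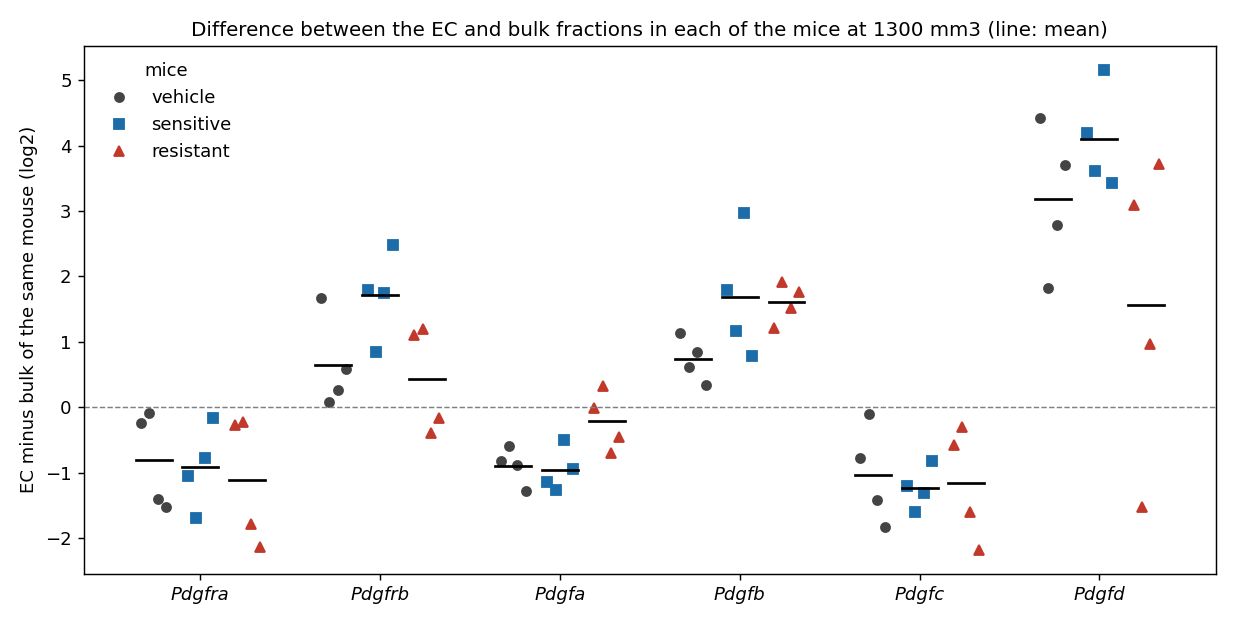
EC level minus bulk level of the same mouse, in log2, for each PDGF gene; each point is 1 mouse, colour and shape give its treatment label, and lines are means of 4 mice. Pdgfra, Pdgfc and Pdgfa lie below 0 in 12, 12 and 11 of 12 mice, and Pdgfb, Pdgfd and Pdgfrb above 0 in 12, 11 and 10.

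Sequence upstream of the start was taken for 4 of the 6 genes from the RefSeq promoter table of build GRCm38.p6. None was taken for Pdgfb and Pdgfrb. Entries of 1 chromosome were left out when the members were looked up. For a gene of that chromosome, absence here does not say that the table lacks it, while elsewhere no entry was left out. The 250 bases before the start are shown for Pdgfra and Pdgfc, which were lower in EC in every mouse, and for Pdgfd, which was higher in 11 of 12 mice. They lie on the plus strand at chr5:75152001-75152250, chr3:81036166-81036415 and chr9:6168236-6168485. Capitals mark GGAAG on either strand (CTTCC as printed), letters found in binding sites of ETS factors, and TATAAA, the TATA box.
Pdgfra: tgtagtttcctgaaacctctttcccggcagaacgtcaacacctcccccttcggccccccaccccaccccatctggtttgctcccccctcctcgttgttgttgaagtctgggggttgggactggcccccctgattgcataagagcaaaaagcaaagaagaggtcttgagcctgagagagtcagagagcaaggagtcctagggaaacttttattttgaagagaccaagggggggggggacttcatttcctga
Pdgfc: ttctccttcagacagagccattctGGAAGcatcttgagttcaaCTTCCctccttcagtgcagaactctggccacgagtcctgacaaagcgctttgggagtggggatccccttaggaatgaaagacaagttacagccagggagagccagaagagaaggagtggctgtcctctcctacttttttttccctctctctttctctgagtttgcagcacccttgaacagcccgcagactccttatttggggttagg
Pdgfd: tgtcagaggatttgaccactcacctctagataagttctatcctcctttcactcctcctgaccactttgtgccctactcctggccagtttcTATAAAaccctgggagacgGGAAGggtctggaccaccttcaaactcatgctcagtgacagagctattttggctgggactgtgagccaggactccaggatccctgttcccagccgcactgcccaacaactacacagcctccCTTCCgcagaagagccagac
Pdgfd and Pdgfc each hold GGAAG once on either strand, and Pdgfra holds it on neither. TATAAA stands once upstream of Pdgfd and in neither of the other sequences. Of 32841 promoter entries of the same length, 64.1% hold GGAAG and 12.4% hold TATAAA on 1 strand or the other, so that both are common. GGGCGG, the GC box, is in none of the sequences shown, is upstream of both Pdgfa starts in the table, and is in 32.7% of all entries. The G and C content of these windows is 54.4% for Pdgfra, 50.8% for Pdgfc and 53.6% for Pdgfd, beside a median of 52.4%. A match is a description of letters, not a binding site.

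By treatment, 3 of the 6 genes passed in vehicle mice, where 27.0% of all genes did, 5 in sensitive mice, where 35.6% did, and 3 in resistant mice, where 29.0% did. Pdgfd was 3.19 higher in EC in vehicle mice (SE 0.72, adjusted p = 0.00935) and 4.10 higher in sensitive mice (SE 0.72, adjusted p = 0.00159). With 1 of 4 bulk signals well above background in each group these sizes are not firm: normexp gave 1.43 and 1.63 and the deposited values 1.56 and 2.28, all called. In resistant mice its difference was 1.56 (SE 0.72, adjusted p = 0.127), and without mouse 2 it was 2.59, with an adjusted p of 0.00613. With all mice it passed with normexp at 1.01 (adjusted p = 0.0216), in the deposited table at 1.26 (adjusted p = 0.00329) and with quantile scaling at 1.82 (adjusted p = 0.0103). Pdgfb differed by 0.73 in vehicle mice (adjusted p = 0.0856), 1.68 in sensitive mice (adjusted p = 0.00154) and 1.60 in resistant mice (adjusted p = 0.00319). Its second probe gave 0.24, 1.03 and 0.86, with adjusted p values of 0.674, 0.0521 and 0.109. Without sensitive mouse 4 the vehicle value of the first probe passed, at an adjusted p of 0.0253.

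Pdgfrb differed by 0.65 (adjusted p = 0.189), 1.71 (adjusted p = 0.00345) and 0.43 (adjusted p = 0.394; 0.18 without mouse 2) in vehicle, sensitive and resistant mice. Pdgfra differed by -0.82 (adjusted p = 0.134), -0.92 (adjusted p = 0.0828) and -1.11 (adjusted p = 0.0488), and the last call was lost without any 1 of 10 of the 12 mice, at adjusted p values of up to 0.219. Pdgfc differed by -1.03, -1.24 and -1.17, called in all 3 groups. The Pdgfc call was lost in vehicle mice without vehicle mouse 2, 4 or 5 or sensitive mouse 2 or 4 (highest adjusted p 0.183), in sensitive mice without mouse 3 (0.0624) and in resistant mice without mouse 3 or 4 (0.0945 and 0.115). Pdgfa differed by -0.89 and -0.97 in vehicle and sensitive mice, both called, and by -0.21 in resistant mice (adjusted p = 0.449; -0.39 without mouse 2).

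Both fractions lie on 1 slide in the resistant mice alone. A fit of those 8 arrays by themselves, added after the values were seen, gave the same differences and called 0 of the 6 genes, with 95 of 18285 genes called, 95.8% of them higher, and Pdgfb came nearest at an adjusted p of 0.0765. In the fit of all mice 46.6% of the genes called in resistant mice were higher, and 62.8% with normexp, which moved the median of all genes from -0.15 to 0.17.

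Whether the gap between fractions itself changed with treatment was tested as a difference of differences. None of the 6 passed for sensitive against vehicle mice, where 0% of the 18285 genes passed and 877 had an unadjusted p under 0.05. Pdgfb and Pdgfrb had the largest shifts relative to their errors, 0.95 (SE 0.41) and 1.06 (SE 0.49). None passed for resistant against vehicle mice either, where 0.273% of genes did. There the Pdgfa gap was 0.68 smaller (SE 0.27, adjusted p = 0.242), the Pdgfb gap 0.87 larger (SE 0.41, adjusted p = 0.304) and the change of the Pdgfd gap -1.62 (SE 1.02, adjusted p = 0.432), or -0.59 without mouse 2. Of the 50 genes called there 4.0% had a positive value, beside 63.8% with normexp, 32.7% with quantile scaling and 19.7% in the deposited table.

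The next question is whether sunitinib or the resistance label went with a change inside the EC fraction. Sensitive and vehicle mice were not told apart: 0 of the 6 genes passed, and 0% of 17946 genes did by limma, with 971 at an unadjusted p under 0.05. The differences were 0.59 for Pdgfd (SE 0.30), 0.39 for Pdgfrb (SE 0.33), 0.28 for Pdgfb (SE 0.20), 0.24 for Pdgfa (SE 0.24), -0.12 for Pdgfra (SE 0.32) and -0.23 for Pdgfc (SE 0.33), and all 6 had overlapping groups.

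In resistant against vehicle mice 1 of the 6 genes passed, Pdgfb, and it was higher, as were 19.2% of all genes. The resistant EC levels of 3.80, 4.05, 4.13 and 4.09 lie above all 4 vehicle levels of 2.92, 3.77, 3.48 and 2.91. The difference was 0.75 (SE 0.20, adjusted p = 0.00829), or 1.68-fold. The result rests on 1 probe and on the scaling. The second Pdgfb probe gave -0.12 (SE 0.26, adjusted p = 0.732), the mean of both probes 0.31 (adjusted p = 0.257), quantile scaling 0.36 (adjusted p = 0.129) and the values of the deposited table gave 0.38 (adjusted p = 0.105). The differences of the other genes lay between -0.52 for Pdgfrb (adjusted p = 0.223; -0.84 without resistant mouse 1, adjusted p = 0.0215) and 0.39 for Pdgfa (adjusted p = 0.194). In resistant against vehicle EC samples 7 of 13 mural markers were lower and 1 higher, and 6 of 9 adipocyte markers were lower. Lower too were 1 of 12 endothelial and 3 of 8 platelet and megakaryocyte markers, and 2 of 9 macrophage markers were higher. Beside these, 4868 of all 17946 genes tested were lower and 3440 higher. The part of the markers in the Pdgfb result was not tested. Of all genes called in this comparison 41.4% were higher, beside 72.9% with normexp, 50.0% with quantile scaling and 51.6% in the deposited table, and normexp moved the median of all genes from 0.03 to 0.23.

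In resistant against sensitive mice Pdgfrb and Pdgfd fell, 2 of the 6, beside 28.7% of all genes. Pdgfrb was 1.88-fold lower, at -0.91 (SE 0.33, adjusted p = 0.0412), and Pdgfd 1.82-fold lower, at -0.86 (SE 0.30, adjusted p = 0.0356). The groups overlap for both: resistant mouse 1 had a Pdgfrb level of 1.88, above 3 of the 4 sensitive mice, and resistant mice 1 and 4 had Pdgfd levels of -2.06 and -2.32, above sensitive mouse 5. Pdgfb was 0.47 higher without overlap on its first probe (adjusted p = 0.0675, called in 2 of 12 fits without 1 array). Its second probe gave 0.01 (SE 0.26, adjusted p = 0.986). Sensitive and resistant mice of 1 fraction lie on different slides, so that no value within a slide can be had.

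The calls of Pdgfrb and Pdgfd are close to the threshold. With only both groups fitted neither passed, at adjusted p values of 0.0799 and 0.0754, and Pdgfb did, at 0.027. That of Pdgfrb held in 3 of 12 fits that left out 1 array, those without resistant mouse 1, sensitive mouse 3 or vehicle mouse 5, and its highest adjusted p was 0.118. That of Pdgfd was lost without resistant mouse 2 or 3 or sensitive mouse 2 or 4, at adjusted p values of 0.0972 to 0.103. With normexp the differences were -0.79 for Pdgfrb (adjusted p = 0.0541) and -0.38 for Pdgfd (adjusted p = 0.0985), and 67.3% of all called genes were higher in place of 38.0%. Quantile scaling gave -0.08 for Pdgfd (adjusted p = 0.873).

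Markers of several cell types differed in the same comparison, in which 5153 of all 17946 genes tested were lower and 3155 higher. Of the mural markers 11 of 13 were lower in resistant than in sensitive EC samples, with a median of -1.40, and their mean level was 0.36 to 1.40 in resistant, 1.58 to 2.54 in sensitive and 1.38 to 1.74 in vehicle mice. Des, the muscle filament desmin, differed by -2.05, and Cspg4, the pericyte proteoglycan NG2, by -1.51. Of the endothelial markers 10 of 12 were lower, with a median of -0.87, and their mean level was 1.98 to 2.56, 2.52 to 3.51 and 2.17 to 2.58 in the same order. Of the adipocyte markers 6 of 9 were lower, with a median of -1.71, of the platelet and megakaryocyte markers 3 of 8 were lower, 1 of 14 fibroblast markers was lower and 1 of 9 macrophage markers was higher. Their part in the results for Pdgfrb and Pdgfd was not tested.

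**Figure D3:**
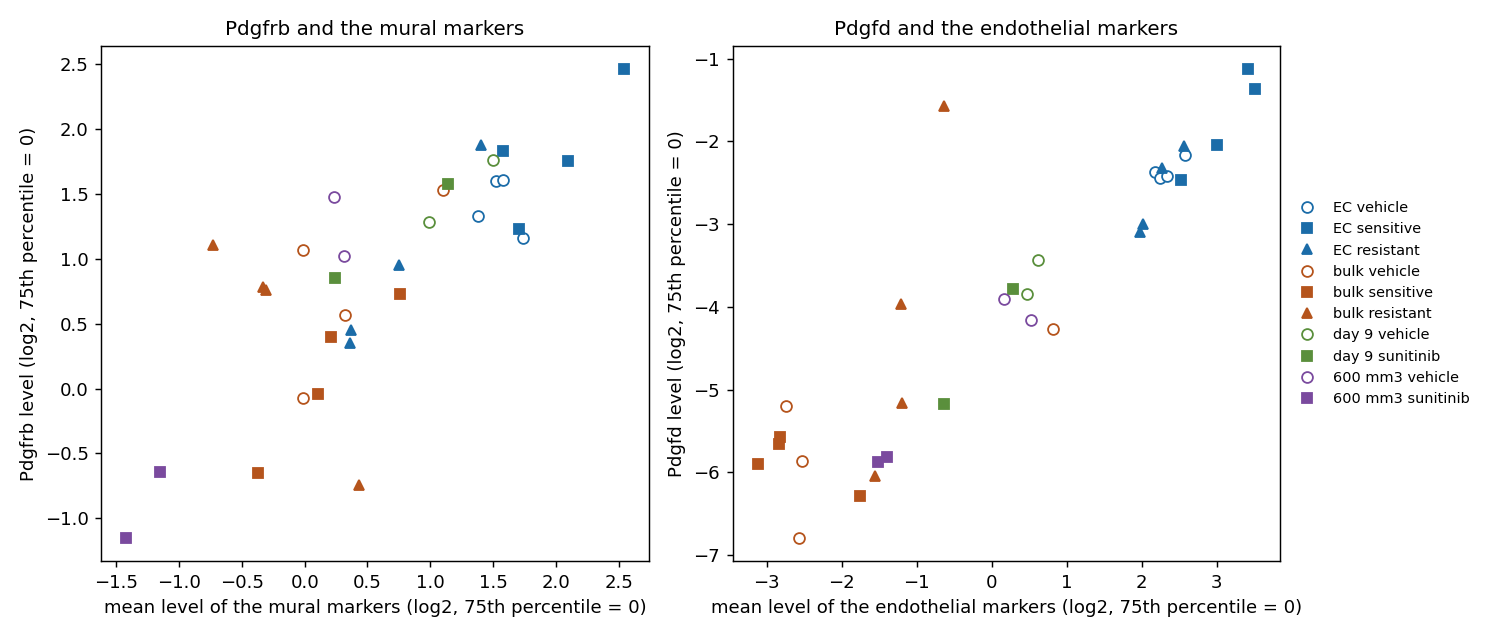
Left, Pdgfrb level against the mean level of 13 mural markers; right, Pdgfd level against the mean level of 12 endothelial markers; all in log2 relative to the 75th percentile, 1 point per array, colour and shape giving the group. By group mean, Pdgfrb and the mural markers are both lowest in 600 mm3 tumours of sunitinib mice. Their Pdgfrb levels are -1.15 and -0.64, beside -0.74 in bulk of resistant mouse 2 and -0.65 in bulk of sensitive mouse 5. The bulk array of resistant mouse 2 has a higher Pdgfd level, -1.57, than other arrays with as few endothelial markers. On that array the lowest level well above background is -3.05, beside -7.09 to -5.38 on the other arrays of the bulk fraction. The part of this higher floor in its Pdgfd level was not tested.

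In the bulk fraction at 1300 mm3 none of the 6 genes passed in any comparison. For sensitive against vehicle mice 0% of 16972 genes passed by limma, with 1085 at an unadjusted p under 0.05, for resistant against vehicle mice 7.98%, and for resistant against sensitive mice 12.3%. Without the bulk array of resistant mouse 2 the last shares were 32.6% and 37.8%, and still none of the 6 passed. The largest differences were those of Pdgfd, 1.35 (SE 0.84, adjusted p = 0.372) in resistant against vehicle and 1.67 (SE 0.84, adjusted p = 0.219) in resistant against sensitive mice. Without resistant mouse 2 they were 0.48 (adjusted p = 0.569) and 0.80 (adjusted p = 0.31). Other settings, among them a fit of only the mouse numbers that both groups share, gave 0.53 to 1.56 and 0.24 to 2.21. The lowest were those with normexp (adjusted p = 0.514 and 0.782). Quantile scaling called both (1.54 and 2.21, adjusted p = 0.0469 and 0.00711) and the deposited table the latter (0.83, adjusted p = 0.0496). Of the vehicle and sensitive bulk signals of Pdgfd 1 of 4 each was well above background. Without resistant mouse 2 Pdgfra differed by 0.75 and 0.77 in place of 0.44 and 0.46 (adjusted p = 0.0804 and 0.0663), and Pdgfrb by 0.11 and 0.78 in place of -0.30 and 0.37. Of the genes called in resistant against sensitive mice 27.2% were higher, beside 37.4% in the deposited table.

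Pdgfa was the 1 gene without overlap in bulk. Its resistant levels of 4.65, 3.92, 4.68 and 4.56 lie below the sensitive levels of 4.93, 5.36, 4.73 and 5.22. The difference was -0.60 (SE 0.23, adjusted p = 0.112), and it passed in the deposited table, at -0.64 (adjusted p = 0.0323), and with quantile scaling, at -0.57 (adjusted p = 0.0455). Pdgfb and Pdgfrb each had a difference of -0.67 in sensitive against vehicle mice, with SE of 0.40 and 0.47 and adjusted p values of 0.913 and 0.973.

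**Figure D4:**
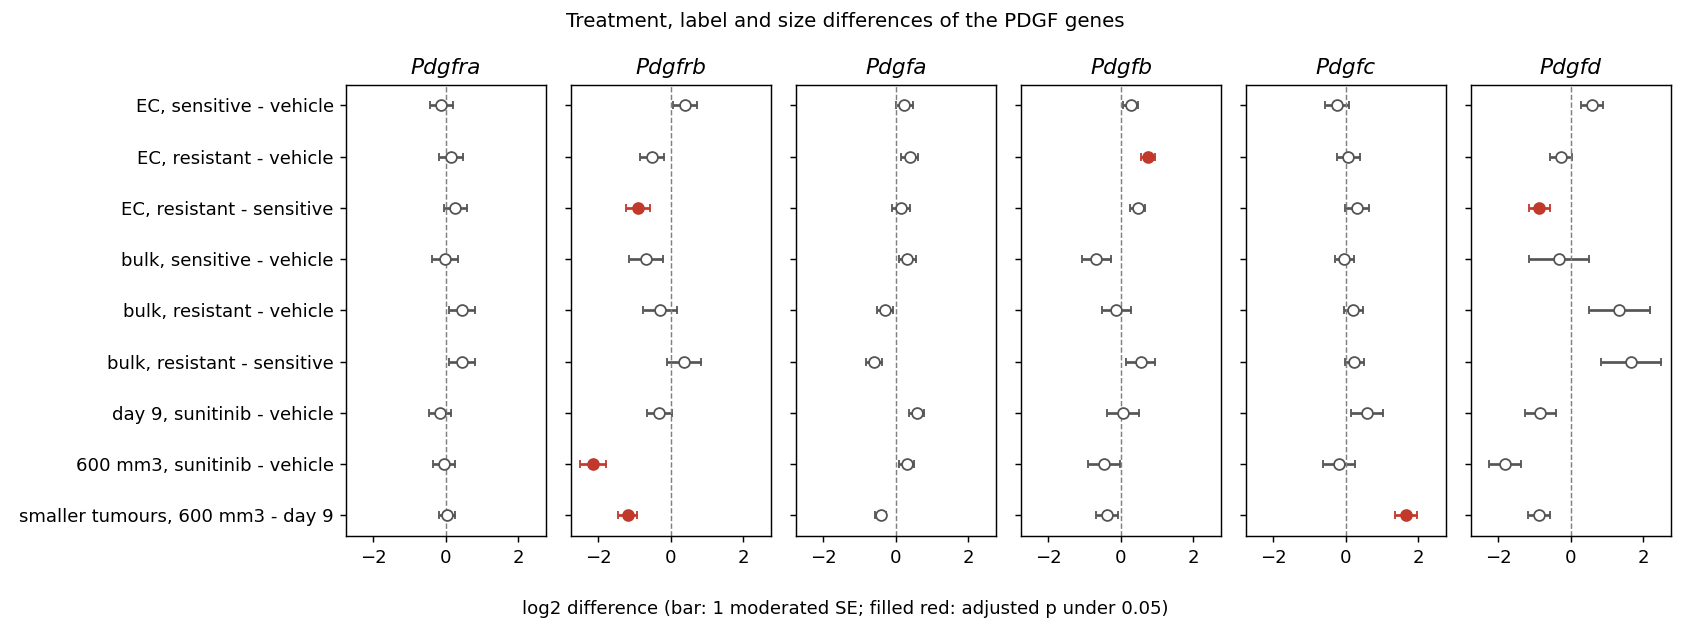
Log2 differences of each PDGF gene in 9 comparisons within a fraction or among smaller tumours, first group minus second; bars are 1 moderated SE and filled red points have an adjusted p under 0.05. The called points are Pdgfb and, in the opposite direction, Pdgfrb and Pdgfd in EC samples, and Pdgfrb and Pdgfc in smaller tumours.

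The smaller tumours were removed at day 9 or at 600 mm3, in 2 mice per group. The labels give a day but no size for the former and a size but no day for the latter. Both are called times here for short. Averaged over both, sunitinib against vehicle gave 0 of 6 genes called, as for 0% of the 17443 genes tested, of which 1744 had an unadjusted p under 0.05. Pdgfd and Pdgfrb had the largest differences, -1.32 (SE 0.31, adjusted p = 0.205) and -1.23 (SE 0.25, adjusted p = 0.167), followed by Pdgfa at 0.45 (SE 0.15, adjusted p = 0.341). Other settings with all arrays gave -1.32 to -0.47 for Pdgfd and -1.23 to -1.15 for Pdgfrb.

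The times were also compared apart, a choice made after the Pdgfrb values were seen. At 600 mm3 the Pdgfrb levels were -1.15 and -0.64 with sunitinib and 1.48 and 1.02 with vehicle. At day 9 they were 0.85 and 1.58 with sunitinib and 1.28 and 1.76 with vehicle. The 600 mm3 groups do not overlap and the day 9 groups do. At 600 mm3 Pdgfrb fell 4.42-fold, by 2.14 on the log2 scale (SE 0.35, adjusted p = 0.0409), and was the 1 gene of the 6 that passed, where 1.13% of all genes were called lower. At day 9 none passed, as for 0% of all genes, with 1387 at an unadjusted p under 0.05, and Pdgfrb differed by -0.31 (SE 0.35, adjusted p = 0.811). The difference between both effects was -1.84 for Pdgfrb (SE 0.49, adjusted p = 0.193). In this test 0.166% of all genes and 0 of the 6 passed. A change of the effect between day 9 and 600 mm3 is thus not shown.

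The 600 mm3 call rests on 2 arrays against 2. Without any 1 of the 4 arrays the Pdgfrb difference was -2.40 to -1.89 with adjusted p values of 0.152 to 0.245, and testing every gene without a filter on dim probes gave an adjusted p of 0.0569. Pdgfd followed at 600 mm3 with -5.87 and -5.81 under sunitinib and -3.90 and -4.16 under vehicle, a difference of -1.81 (SE 0.44, adjusted p = 0.111) without overlap. Pdgfd was called in 2 of 8 fits without 1 array. Its size is not firm, since other settings with all arrays gave -1.9 to -0.55. Of both sunitinib signals of Pdgfd 1 was well above background.

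Vessel and macrophage markers were lower in the same arrays. The mean mural level was -1.42 to -1.15 with sunitinib and 0.23 to 0.31 with vehicle at 600 mm3, and the median difference of its 13 markers was -2.08. Of these Cnn1 and Abcc9 passed as lower, at -3.78 and -2.08, and Des as higher, at 5.07. Endothelial markers had a median of -2.10 with 4 of 12 called lower, and fibroblast markers -1.09 with 0 of 14 called. Macrophage markers had a median of -1.62 with 3 of 9 called lower. Over all genes the median was 0.07, and 1.13% were called lower. The mean fibroblast level was 1.44 to 1.93 with sunitinib and 2.25 to 3.30 with vehicle. Their part in the Pdgfrb and Pdgfd results was not tested.

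Between 600 mm3 and day 9, averaged over treatments, 2 of the 6 genes passed, beside 4.33% of all genes. Pdgfc rose 3.19-fold, by 1.67 (SE 0.31, adjusted p = 0.0359), and Pdgfrb fell 2.28-fold, at -1.19 (SE 0.25, adjusted p = 0.0482). The Pdgfc levels were 3.22 and 3.83 with vehicle and 3.49 and 3.19 with sunitinib at 600 mm3, and 2.11 and 0.81 with vehicle and 2.20 and 1.92 with sunitinib at day 9. All 4 tumours at 600 mm3 thus exceed all 4 day 9 tumours. The Pdgfrb groups overlap, since both vehicle tumours at 600 mm3 lie within the day 9 range and both sunitinib tumours below it. Each call held in 1 of 8 fits that left out 1 array, that of Pdgfc without vehicle mouse 1 at day 9 and that of Pdgfrb without sunitinib mouse 1 at day 9, with highest adjusted p values of 0.131 and 0.165. Without the filter on dim probes the adjusted p values were 0.0505 and 0.0661. Of all genes called 36.7% were higher, beside 24.3% with normexp, which moved the median of all genes from 0.08 to -0.03. Mural markers had a median of -1.33 with 6 of 13 called lower, and fibroblast markers -1.47 with 1 of 14. Their part in the results was not tested.

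Across the 10 groups, which lie on 4 slides, the order of the mean levels is a description. Pdgfra ran from 1.46 ± 0.64 (SD, n = 4) in bulk of resistant mice to 0.07 ± 0.24 (SD, n = 4) in EC of sensitive mice, and each neighbour in the order overlaps the next. Pdgfrb ran from 1.82 ± 0.50 (SD, n = 4) in EC of sensitive mice to -0.90 ± 0.36 (SD, n = 2) in sunitinib tumours of 600 mm3. Pdgfa was highest at day 9 under sunitinib, at 5.38 ± 0.12 (SD, n = 2), and lowest in EC of vehicle mice, at 3.84 ± 0.48 (SD, n = 4). For these genes no neighbouring groups were separate.

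On its first probe Pdgfb had 1 gap in its order, between EC of resistant mice at 4.02 ± 0.15 (SD, n = 4) and EC of sensitive mice at 3.54 ± 0.12 (SD, n = 4). Its lowest mean on that probe was 1.87 ± 0.83 (SD, n = 4) in bulk of sensitive mice. With the second probe EC of resistant and of sensitive mice each had a mean of -1.01. Pdgfc was highest in bulk of resistant mice, at 4.10 ± 0.47 (SD, n = 4), and had a gap between EC of sensitive mice, at 2.62 ± 0.40 (SD, n = 4), and the day 9 tumours, with 2.06 ± 0.20 (SD, n = 2) under sunitinib and 1.46 ± 0.92 (SD, n = 2) under vehicle. Pdgfd was highest in the 3 EC groups, from -1.75 ± 0.61 (SD, n = 4) in sensitive mice to -2.62 ± 0.51 (SD, n = 4) in resistant mice, with a gap to -3.64 ± 0.30 (SD, n = 2) in vehicle tumours of day 9 and a further one to -4.03 ± 0.18 (SD, n = 2) in vehicle tumours of 600 mm3. Its lowest mean was -5.86 ± 0.32 (SD, n = 4), in bulk of sensitive mice.

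The genes with the most similar pattern were taken by Pearson correlation of log2 levels over the 32 arrays, among 16576 genes, as a description of arrays that share fractions, slides and mice. Those nearest to Pdgfd were Clec1a (0.96), Erg (0.94), Ct55 (0.94), Hoxd9 (0.94) and Chst7 (0.94), and Erg is an ETS transcription factor of endothelial cells. Those nearest to Pdgfrb were Pcdh19 (0.90), Fstl1 (0.89), Nid1 (0.88), Fkbp10 (0.88) and Sema7a (0.87), of which Nid1 encodes a basement membrane protein. Those nearest to Pdgfra were Steap2 (0.94), Hmga2 (0.93), Farp1 (0.92), Pi4k2b (0.92) and Trpm6 (0.92).

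For Pdgfa the nearest were Jkamp (0.90), Cfap298 (0.90), Eno3 (0.89), Aldh7a1 (0.89) and Fndc4 (0.88). For Pdgfb they were Ubd (0.87), Kif26a (0.85), Mtus1 (0.85), Tmem255a (0.83) and Tmem51 (0.82). For Pdgfc they were Foxq1 (0.89), Dpy19l3 (0.87), Vill (0.87), Pitx1 (0.87) and Pdgfrl (0.86), the last a receptor-like gene of the same name. Over the 24 arrays without resistant mice the 30 correlations lay between 0.75 for Tmem51 and 0.98 for Clec1a. Among the 6 genes themselves, Pdgfra and Pdgfa had the highest correlation, 0.71, Pdgfb and Pdgfd 0.70, and Pdgfa and Pdgfd the lowest, -0.66.

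Genes that act beside the receptors were read from 4 lists. Of 10 genes that activate or bind the ligands, 5 were higher and 2 lower in EC than in bulk, with a median of 0.32 beside -0.06 over all genes. For this and the next 3 lists the shares over all genes tested were 22.6% higher and 29.3% lower. Sparc, a matrix protein that binds PDGF chains, was 1.05 higher, and St14, the protease matriptase, differed by -1.56. Of 25 adaptors and kinases of the receptors 7 were higher and 8 lower, with Grb2 and Fyn each at 1.10. Of 14 negative regulators 7 were higher and 0 lower, among them Ptprj (1.56), a phosphatase, and Socs3 (1.39), an inhibitor of cytokine signalling. Of 12 early genes that PDGF induces in cultured cells 5 were higher and 4 lower, with Ccl2 (1.67), a chemokine, and Egr2 (1.30), a transcription factor, at the top. These genes serve many receptors besides those of PDGF.

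In resistant against sensitive EC samples the adaptors and kinases had 8 higher and 0 lower of 25, with Shc1, an adaptor protein, at 0.65. Of all 17946 genes 3155 were higher and 5153 lower there, and with normexp the share of higher genes among all calls went from 38.0% to 67.3%. The negative regulators had 1 higher and 2 lower of 14, the lower ones being Spry4 (-1.51) and Spry2 (-1.50), feedback inhibitors of receptor tyrosine kinases. The early genes had 2 higher and 0 lower of 12, Ier2 (1.23) and Klf6 (0.57), and the ligand binders 1 lower of 10, the protease inhibitor A2m (-1.07). At 600 mm3 under sunitinib the called genes of these lists were Nrp1 (-1.49), Spry4 (-1.19) and Fosl1 (1.69). In 600 mm3 against day 9 tumours they were Plau (-1.39), the urokinase, Spry4 (-1.03) and Myc (0.71). In sensitive against vehicle EC samples and in sunitinib against vehicle tumours of day 9, 0 genes of these lists passed, as for all genes tested.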

How the data were processed

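Expression was measured on 32 one-colour Agilent arrays from 4 slides. The deposited scanner files hold processed signal intensity, background-subtracted by Agilent Feature Extraction 10.7.3.1 per the file headers (9.1 per the submitters' processing notes). The deposited value table holds normalized intensities of the same arrays, with the authors' scaling not given in the sources used here. Their log2 values were taken here and served as an alternative.

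Control spots were left out, spots of 1 probe averaged, and log2 signals set relative to the 75th percentile of each array. RefSeq accessions named 26582 of 55681 probes, for 20145 genes. The probe with the highest mean stood for a gene. A gene was tested if its probe was well above background on 4 arrays or more (2 for smaller tumours). The fits used limma 3.58.1 under R 4.3.3 with moderated standard errors, and p values were adjusted by Benjamini-Hochberg per comparison across every gene tested, at a threshold of 0.05. Adjusted p values, differences and SE in the report come from these fits. EC and bulk were compared with mouse as a block, since the labels give both fractions of 1 tumour. The deviations of paired arrays from group means correlated at 0.219 to 0.398 in vehicle and 0.122 to 0.346 in sensitive mice. In resistant mice they correlated at -0.102 to 0.383, the lowest in mouse 4. Across treatments the same numbers name different mice, and same-numbered arrays correlated at -0.226 to 0.222 in their deviations from group means, so that no block was used there.

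Alternatives were normexp background correction (offset 50, on median signals), quantile scaling, the deposited table and other probes. Further ones were no filter, fits of 2 groups, the replicate block and each array or mouse left out. In EC and bulk the replicate block kept only mouse numbers found in both groups compared. Resistant mouse 1 and mouse 5 of the other group were thus left out of it. The second-probe, within-slide and separate-time results were added after the values were seen. The fits were tested on simulated data. Named genes are the 6 PDGF genes, the 5 most correlated genes of each among genes well above background on at least 16 arrays, and at most 2 called genes of each pathway list and comparison with the largest differences, of which 1 gene is not reported here. Cell type lists are given as lists; the single markers named among them were chosen after their values were seen. The PDGF genes and all lists were chosen with earlier results of these data known. The number of arrays limits the precision. Promoter sequence is from the RefSeq table of GRCm38.p6.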

Additional observations from a re-analysis of the deposited data

Results flagged for a closer look

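The Pdgfa level of the bulk array of resistant mouse 2 was 3.92, while the other 3 arrays of its group lay between 4.56 and 4.68. The gap is 0.842 of the range of the group, above Dixon's 95% critical value for 4 arrays. Of the 36 sets of 4 arrays checked (6 genes in 6 groups) this was the 1 to pass, and chance passes about 1 in 20. Without this array the Pdgfa difference of bulk resistant against sensitive mice was -0.43 (adjusted p = 0.118) in place of -0.60 (adjusted p = 0.112).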

How the results depend on the processing

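In settings other than 1 array or mouse left out, 697 of 756 values of single PDGF genes kept direction and side of the threshold. Of the rest 21 lost the call, 13 gained it and 25 reversed. These settings include fits of part of the arrays, namely of only both groups, within the slide and of shared mouse numbers. With 1 array or mouse left out, 1006 of 1104 values kept direction and side, 49 lost the call, 9 gained it and 40 reversed. The cause of each shift was not tested.

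Numbers of the 6 genes called changed as follows. EC resistant against sensitive had 2, and 1 in the deposited table, with quantile scaling (Pdgfrb in each) and with only both groups fitted (Pdgfb, in place of both genes reported), 0 with normexp, and 0 to 3 without 1 array. EC resistant against vehicle had 1, and 0 in the deposited table, with quantile scaling, the mean of probes and the second probe, and 1 to 2 without 1 array. EC against bulk in resistant mice had 3, 0 within the slide and 1 to 4 without 1 mouse. EC against bulk had 4 to 5 in sensitive and 2 to 3 in vehicle mice without 1 mouse. Bulk resistant against sensitive had 0, and 2 in the deposited table and with quantile scaling, and bulk resistant against vehicle 0, and 1 with quantile scaling. The 600 mm3 sunitinib comparison had 1, 0 without the filter, 0 with the replicate block and 0 to 2 without 1 array. The 600 mm3 against day 9 comparison had 2, 0 without the filter and 0 to 2 without 1 array, and sunitinib against vehicle over both times 0, and 0 to 1.

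These values reversed, all at an adjusted p of over 0.05 before and after, except Pdgfb in EC resistant against vehicle, which was called with its first probe. In EC resistant against vehicle the deposited table gave Pdgfa -0.07, Pdgfc -0.17 and Pdgfd 0.41. Quantile scaling gave Pdgfa -0.01, Pdgfc -0.23 and Pdgfd 0.65, normexp Pdgfd 0.10 and the second probe Pdgfb -0.12. The replicate block, which lacked resistant mouse 1 and vehicle mouse 5, gave Pdgfc -0.35 and Pdgfra -0.38 in that comparison. In EC resistant against sensitive Pdgfa was -0.30 in the deposited table, -0.06 with normexp and -0.21 with quantile scaling. For the shift of the EC to bulk gap in sensitive mice Pdgfa was 0.01 in the deposited table and 0.07 with quantile scaling. The second Pdgfb probe gave -0.13 in EC sensitive against vehicle, 0.01 at 600 mm3, -0.44 at day 9, 0.44 for the difference of both effects and 0.05 for 600 mm3 against day 9. At day 9 Pdgfb was -0.19 with the mean of probes and -0.01 with quantile scaling. Pdgfd in bulk sensitive against vehicle was 0.29 with normexp. Pdgfra was -0.02 in the deposited table for the difference of effects and -0.03 with quantile scaling for 600 mm3 against day 9.

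Without 1 array or mouse, the ranges that crossed 0 were as follows. In EC resistant against vehicle, Pdgfc -0.16 to 0.32 and Pdgfra -0.15 to 0.35; in EC resistant against sensitive, Pdgfra -0.02 to 0.45; in EC sensitive against vehicle, Pdgfc -0.47 to 0.00 and Pdgfra -0.36 to 0.07. In bulk sensitive against vehicle, Pdgfc -0.15 to 0.10, Pdgfd -0.74 to 0.10 and Pdgfra -0.19 to 0.21; in bulk resistant against vehicle, Pdgfb -0.38 to 0.08 and Pdgfrb -0.58 to 0.11. For the shift of the gap in sensitive mice, Pdgfa -0.23 to 0.03, Pdgfc -0.47 to 0.10 and Pdgfra -0.36 to 0.15, and in resistant mice Pdgfc -0.42 to 0.20, Pdgfra -0.59 to 0.05 and Pdgfrb -0.47 to 0.12. At 600 mm3, Pdgfb -1.20 to 0.26, Pdgfc -0.49 to 0.12 and Pdgfra -0.51 to 0.42; at day 9, Pdgfb -0.11 to 0.23, Pdgfc -0.05 to 1.25 and Pdgfrb -0.67 to 0.06. Over both times, Pdgfb -0.57 to 0.16, Pdgfc -0.12 to 0.53 and Pdgfra -0.33 to 0.13; for the difference of effects, Pdgfb -1.25 to 0.20 and Pdgfra -0.36 to 0.57; for 600 mm3 against day 9, Pdgfra -0.20 to 0.26.

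The replicate block, whose numbers name different mice, kept in EC and bulk only the numbers found in both groups. With resistant mice it thus lacked resistant mouse 1 and mouse 5 of the other group. In EC resistant against vehicle it gave Pdgfb 0.70 (adjusted p = 0.0667) and Pdgfrb -0.93 (adjusted p = 0.0361). The parts of the block and of the missing arrays in these shifts were not tested. At 600 mm3, where the block kept every array, Pdgfrb was -2.14 (adjusted p = 0.0519). The block left 0 of 1354 and 0 of 2084 genes called in bulk resistant against vehicle and sensitive mice, both without the arrays named. For the difference of effects it left 0 of 29.

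In settings other than 1 array or mouse left out, these counts over all genes above 0 moved by over 1.5 times. Bulk resistant against vehicle went from 1354 to 2297 with quantile scaling, 2314 in the deposited table and 732 with only both groups, and against sensitive from 2084 to 1272 with only both groups. Without the filter 755 became 493 for 600 mm3 against day 9, 286 became 171 for sunitinib at 600 mm3 and 29 became 15 for the difference of effects. The resistant shift of the gap went from 50 to 156 with quantile scaling and 183 in the deposited table, and EC against bulk in resistant mice from 5294 to 95 within the slide. Leaving out 1 array or mouse moved such counts further. Without resistant mouse 2, bulk resistant against vehicle had 5525, bulk resistant against sensitive 6407, EC against bulk in vehicle mice 7587 (2327 without vehicle mouse 5, 4944 with all) and the resistant shift of the gap 426 (0 without vehicle mouse 5). Without 1 array the ranges were 693 to 5525 and 1170 to 6407 for both bulk comparisons, 4 to 489 for sunitinib at 600 mm3, 169 to 861 for 600 mm3 against day 9, 2 to 94 for the difference of effects and 0 to 202 for sunitinib over both times. EC against bulk had 4402 to 8559 in sensitive mice, against 6518 with all, and 2702 to 7501 in resistant mice. Slide could not be fitted as a block between treatments, since each slide holds whole groups; 600 mm3 and day 9 share no replicate numbers.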
